A study of Ginkgo biloba with 2 samples.

Results

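Among the predicted miRNA targets of Ginkgo biloba, a gymnosperm tree, 64 of 2713 genes had a best protein match named as a transporter, channel or pump. They were taken by the description of that match in the authors' deposited table, which had to name a transporter, transporting protein, channel, carrier, exchanger, antiporter or aquaporin and neither the chloroplast, the mitochondrion nor ubiquitin. No measured value entered the rule itself, but it was set with earlier results of these data known. The miRNAs were counted in 2 leaf libraries, 1 of the yellow leaves of a gold-coloured mutant and 1 of normal green leaves. Both kinds of leaf came from an adult tree under natural conditions, and the labels describe the mutant leaf as yellow-green striped in 1 place and as yellow in another, so the yellow library may hold green tissue. They give RNA of cambium in the extraction text but leaf as the tissue of both samples, and no miRNA here marks either tissue, so the label was not checked. The sources used here do not say how many leaves or shoots were pooled per library. The name counts summed to 2793966 reads in the yellow and 2084893 in the green library. No leaf type had a second library, so every difference below compares these libraries and not the leaf types, and no test was made.

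A miRNA guides an Argonaute protein to transcripts with a matching site, which are then cut or translated less. Plant transport proteins fall into pumps that spend ATP, carriers that couple the movement of a solute to a gradient, and channels that let ions or water pass down one. In leaves they load and unload sugars and amino acids, take up phosphate, sulfate and metals, set the calcium and proton gradients across membranes and direct the flow of auxin. The target genes here are predictions. Their transcripts were not measured, and the values below are levels of the miRNA names listed for them.

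The genes were listed for 55 miRNA names in 101 gene-name pairs. Of these names, 31 carry a miRBase name from another plant, whose prefix gives the species (ath for Arabidopsis thaliana, vvi for grapevine), and 24 carry a number from the authors (novel_12 and so on). A single name was given for 51 of the 64 genes (79.7%), against 74.2% of all target genes. Numbered names alone were given for 33 genes (51.6%), against 51.1% of all target genes. The match came from Arabidopsis thaliana for 53 genes and from rice for 6. Names listing these genes were read less than most, with a median of 22 reads in both libraries together against 63 for all 467 names. Only 29 of the 55 reached 20 reads, the least used for a call, and 32 of the 64 genes were listed for such a name. The other 32 were listed only for names with fewer reads, and for 15 of those the names held at most 3 reads in all.

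A name was called higher or lower when it had at least 20 reads, a ratio of yellow over green CPM (counts scaled to the column total) of at least 2 in either direction, and a 95% exact (Clopper-Pearson) counting interval that left out 1. Intervals follow each ratio and cover counting error only. In RNA of whole leaves, fewer cells with a miRNA and less of it per cell cannot be told apart. Lower names were listed for 10 of the 32 genes that could be called and higher names for 5. Among all 1599 target genes with such a name, 28.6% were listed for a lower and 17.3% for a higher name, so the shares of the transport genes (31.3% and 15.6%) lay near the background. Of the 29 names, 8 were lower (27.6%, against 24.8% of all 306 names with at least 20 reads) and 4 were higher (13.8%, against 12.1%). The scaling moved this split. With TMM, a trimmed-mean scaling, 6 genes were listed for a lower and 8 for a higher name, against backgrounds of 18.1% and 31.4%. With median of ratios these counts were 8 and 8, against 19.6% and 31.2%, and with the total less its most-read name 9 and 8, against 23.8% and 29.4%. Among the 29 names, TMM gave 4 lower and 7 higher, against 16.3% and 20.9% of all names. Median of ratios gave 6 lower names and 7 higher ones, against 17.6% and 19.6%, and the total less its most-read name gave 7 and 7, against 20.9% and 16.3%. Each other scaling raised every ratio by a common factor. TMM multiplied it by 1.38, median of ratios by 1.34 and the total less its most-read name by 1.20. Lower under each of the 4 scalings were 4 names listed for 6 genes, and higher under each were 4 names listed for 5 genes. Since each factor was above 1, these are simply the lower calls with TMM and the higher calls by the total. Their backgrounds are those given above, 16.3% of names and 18.1% of genes for lower, and 12.1% and 17.3% for higher. The median log2 ratio of the 29 names was 0.01, beside -0.43 for all 306, and with a minimum of 50 reads it was -0.50 for 21 names, beside -0.48 for all 246.

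**Figure D1:**
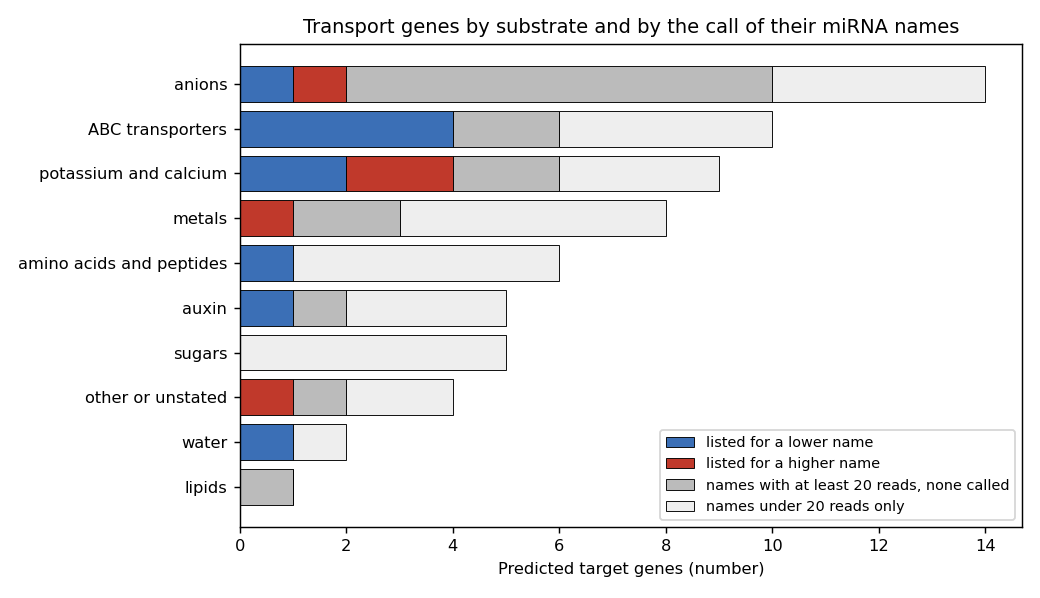
Number of predicted transport genes per substrate group (horizontal axis), divided by the call of the miRNA names listed for them when scaled by the column total. Sugar transport genes were listed only for names under 20 reads, and the 5 PHT1 phosphate transporter matches are among the 8 anion genes whose names were read enough but not called.

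**Figure D2:**
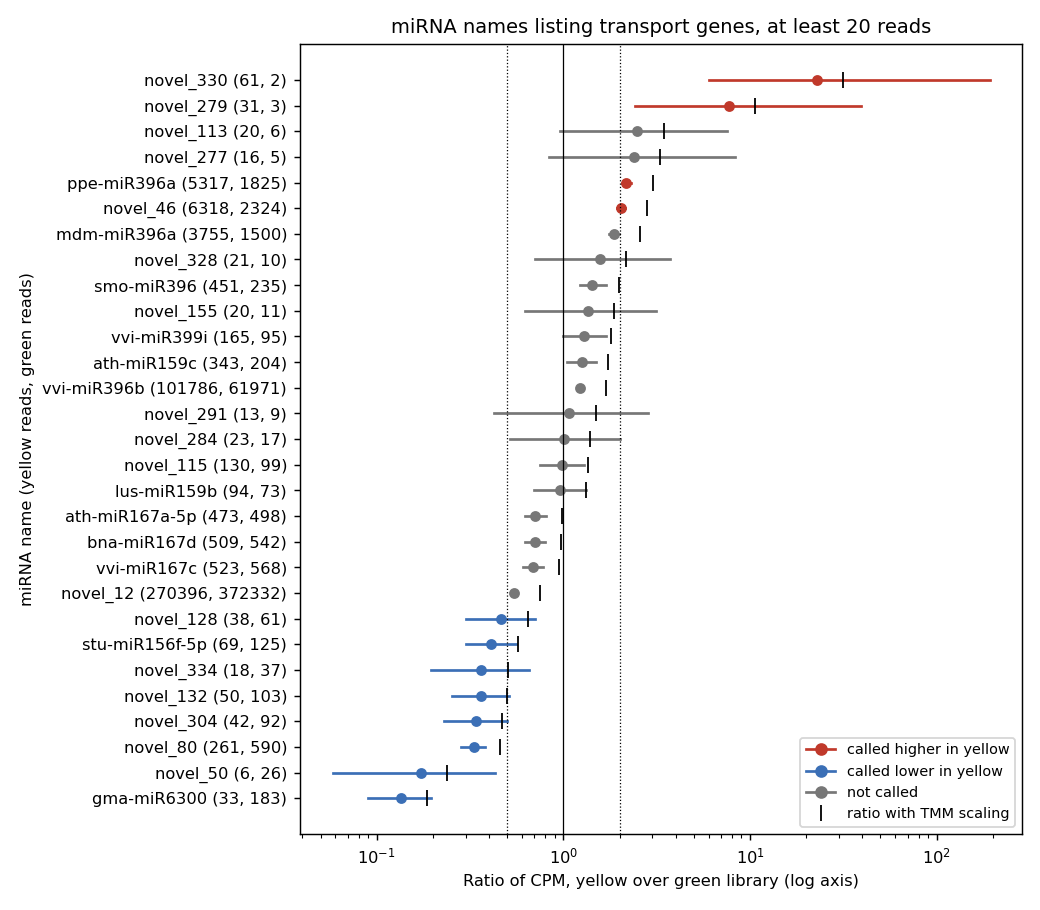
Ratio of yellow over green CPM (log axis) for the 29 names with at least 20 reads, with 95% exact counting intervals as lines, limits of 2-fold as dotted lines and the ratio under TMM scaling as a black tick. The reads in brackets show that the highest ratios, of novel_330 and novel_279, rest on 2 and 3 green reads.

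The largest substrate group was that of anions, with 14 genes. Within it, 5 genes matched the phosphate transporter family PHT1, proton-coupled carriers that bring inorganic phosphate into the cell across the plasma membrane. Gb_05489 and Gb_07357 matched inorganic phosphate transporter 1-4 of Arabidopsis, Gb_05490 matched transporter 1-1, Gb_05492 transporter 1-3 and Gb_07356 transporter 1-7. The deposited table gave an E value of 0 for each of these matches. These genes were listed for 5 names of miR399, a family that rises in phosphate-starved Arabidopsis, and for novel_284. 4 of them were listed for all 6 names, while Gb_05492 was not listed for ppe-miR399a or ptc-miR399e. In Arabidopsis the known target of miR399 is PHO2, a ubiquitin-conjugating enzyme that lowers the amount of PHT1 protein. The 5 miR399 names were listed for 15 genes in all, and PHT1 matches made up 5 of the 7 genes of vvi-miR399i (71.4%). None of the 15 had a match described as a ubiquitin-conjugating enzyme, and Gb_40880 among them had no protein match.

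The most-read name of the family was vvi-miR399i, with 165 reads (59.1 CPM) in the yellow and 95 reads (45.6 CPM) in the green library. Its ratio was 1.30 (1.001 to 1.69), short of the 2-fold limit under every scaling, and 1.79 with TMM. novel_284 had 23 reads in the yellow and 17 in the green library, a ratio of 1.01 (0.516 to 2.01). The other names were read too little for a ratio: ppe-miR399a had 10 reads in the yellow and 4 in the green library, ptc-miR399e 9 and 3, ath-miR399b 2 and 2, and ppe-miR399c 4 and 0. Thus none of the names listed for PHT1 matches was called, and vvi-miR399i alone supplied most of their reads in both libraries. The counting rule is not given, so a read may count under several names of a family, and these may not be separate measurements.

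**Figure D3:**
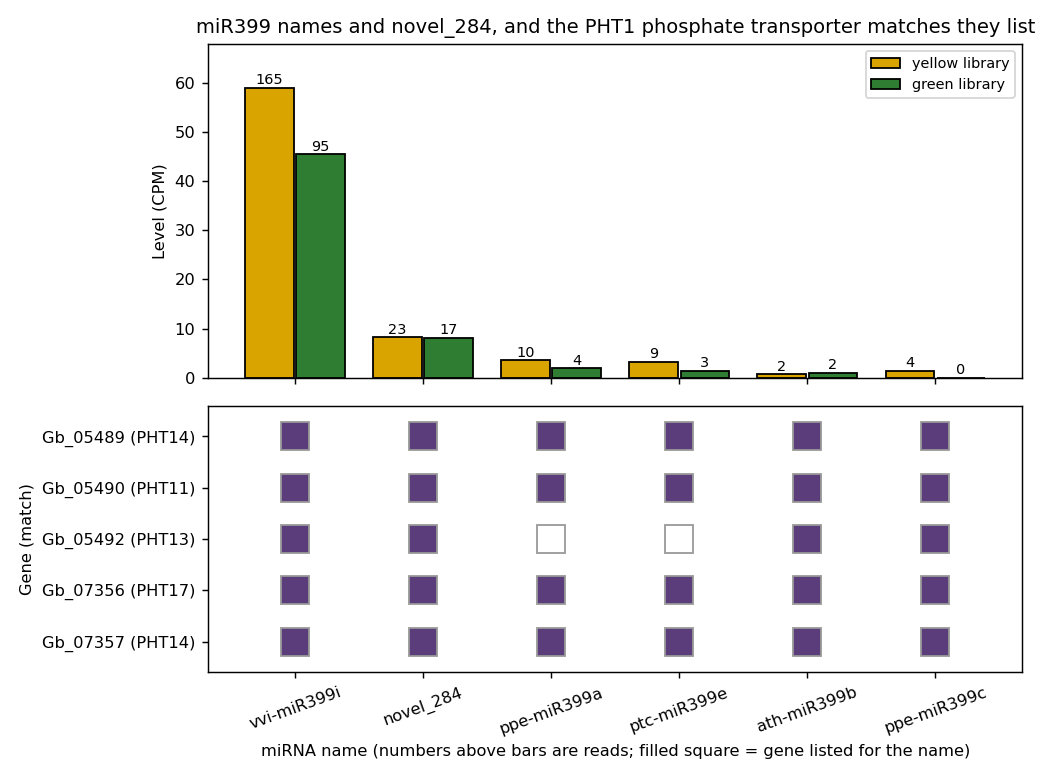
Levels in CPM of the 6 names listed for PHT1 matches (upper panel, yellow bar left of green bar, reads above each bar) and the genes listed for each name (lower panel, filled squares). vvi-miR399i stands at 59.1 CPM in the yellow and 45.6 CPM in the green library, and no other name passes 10 CPM.

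The remaining anion genes included the 2 matches to sulfate transporters, carriers that move sulfate with protons. Gb_14054, matching sulfate transporter 3.3 with an E value of only 4.73e-06 in the authors' deposited table, was listed for gma-miR6300. That name had 33 reads (11.8 CPM) in the yellow and 183 reads (87.8 CPM) in the green library, 7.43-fold lower (5.11 to 11.1), and 5.37-fold lower with TMM. Gb_10150, matching sulfate transporter 3.4, was listed for novel_155, with 20 reads in the yellow and 11 in the green library and a ratio of 1.36 (0.620 to 3.13). The miR395 family, which in Arabidopsis targets ATP sulfurylases and a sulfate transporter, was listed for neither. It was listed for matches to ATP sulfurylase 1 (Gb_18514) and ATP sulfurylase 2 (Gb_28514), which are no transporters.

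Chloride channel proteins of the CLC family, anion channels and exchangers of inner membranes, were matched by 4 genes. Gb_04146, matching CLC-e, was listed for novel_279, with 31 reads (11.1 CPM) in the yellow and 3 reads (1.44 CPM) in the green library. Its ratio of 7.71 (2.41 to 39.4) passed the limit under every scaling but rests on the 3 green reads. Gb_04135, also matching CLC-e, was listed for sly-miR482a, with 7 reads in the yellow and 3 in the green library. Gb_06776, matching CLC-g, was listed for novel_12, the most-read of all names listing transport genes, with 270396 reads (96779 CPM) in the yellow and 372332 reads (178586 CPM) in the green library. The ratio of novel_12 was 0.542 (0.539 to 0.545), just short of the 2-fold limit, and 0.749 with TMM. Gb_03966, matching CLC-c, was listed for stu-miR172c-3p, with 3 reads in the yellow and 0 in the green library. The deposited matches thus put 2 genes of 1 kind, CLC-e, under different names, of which novel_279 was called and sly-miR482a was read too little.

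The last 3 anion genes were matches to the glycerol-3-phosphate transporters 4 and 1 and to the malate channel ALMT12, an anion channel of guard cells in Arabidopsis. Gb_05694, the transporter 4 match, was listed for smo-miR396, with 451 reads in the yellow and 235 in the green library and a ratio of 1.43 (1.22 to 1.68). Gb_39294, the transporter 1 match, was listed for ppt-miR167, and Gb_32253, the ALMT12 match, for sbi-miR6231-5p. Neither name had a read in the yellow library, and they had 1 and 2 reads in the green library.

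Among the cation genes, 6 of 9 matched calcium-transporting proteins that pump calcium out of the cytosol, and lower and higher names were both listed for them. Gb_14188 and Gb_31234 matched ACA8, a calmodulin-regulated calcium pump of the plasma membrane in Arabidopsis, and both were listed for novel_80. That name had 261 reads (93.4 CPM) in the yellow and 590 reads (283 CPM) in the green library. It was 3.03-fold lower (2.61 to 3.52), and 2.19-fold lower with TMM. The third match to ACA8, Gb_35412, was listed for ata-miR395b-3p, with 0 reads in the yellow and 1 in the green library. Gb_06007, whose match was the plasma membrane calcium pump ACA1 of rice, was listed for 3 names of miR396, a family known for targeting growth-regulating factors. ppe-miR396a had 5317 reads (1903 CPM) in the yellow and 1825 reads (875 CPM) in the green library, a ratio of 2.17 (2.06 to 2.29). mdm-miR396a had 3755 reads in the yellow and 1500 in the green library, a ratio of 1.87 (1.76 to 1.98) that passed 2 under each other scaling. vvi-miR396b, by far the most read, had 101786 reads in the yellow and 61971 in the green library, a ratio of 1.23 (1.21 to 1.24) that stayed below 2 under each scaling. The call for Gb_06007 therefore came from the 1 of its 3 names that passed the limit, and the most-read name did not.

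Pumps described as endoplasmic reticulum-type, which names a type and not a measured location, were matched by Gb_22699 (tomato LCA1) and Gb_17996 (ECA3 of Arabidopsis). The deposited E value of the Gb_17996 match was 8.50e-18. Gb_22699 was listed for novel_115, with 130 reads in the yellow and 99 in the green library and a ratio of 0.980 (0.749 to 1.29), which stood above 1 under each other scaling. Gb_17996 was listed for novel_244, with 9 reads in the yellow and 8 in the green library. The channel gene Gb_31243, matching CNGC14, a calcium-permeable cyclic nucleotide-gated channel of Arabidopsis roots, was listed for novel_330. That name had 61 reads (21.8 CPM) in the yellow and 2 reads (0.959 CPM) in the green library. Its ratio of 22.8 (6.04 to 192) was the highest among the 29 names. Gb_09885 matched a human calcium channel subunit with an E value of 1.77e-10 in the deposited table and was listed for novel_284, as were the PHT1 matches. Gb_11416, matching potassium transporter 7, was listed for novel_327, with 6 reads in the yellow and 5 in the green library.

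**Figure D4:**
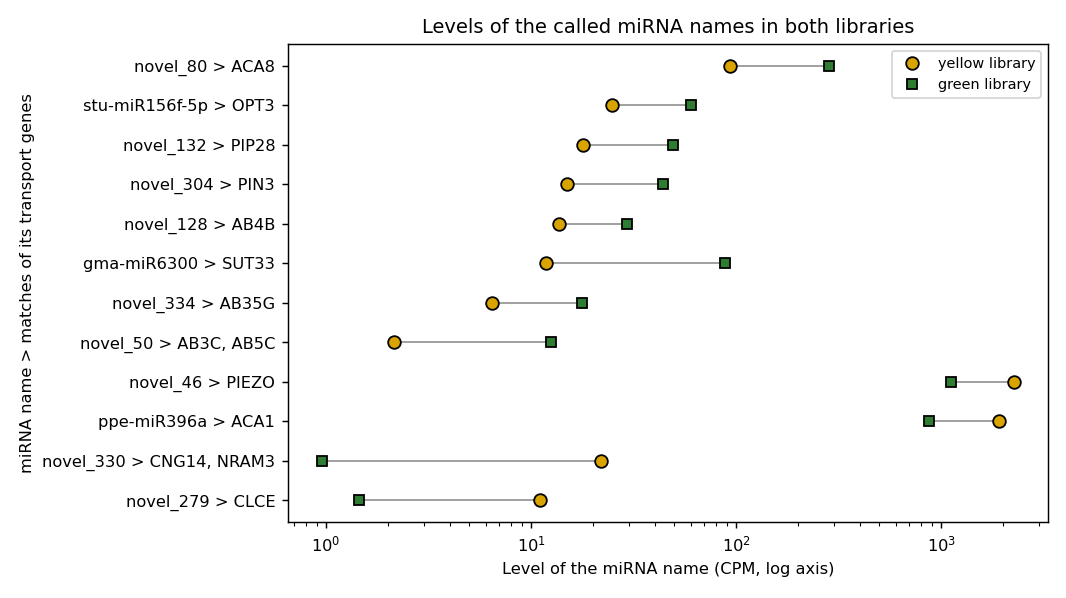
Levels in CPM (log axis) of the 12 called names in the yellow library (circles) and the green library (squares), each with the abbreviated protein matches of its transport genes. novel_46 and ppe-miR396a have at least 875 CPM in both libraries, while none of the other 10 passes 283 CPM.

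The ABC transporters, pumps that use ATP to move a wide range of organic molecules, held 10 genes, of which 6 were listed for a name with at least 20 reads. By the total, 4 of these were listed for a lower name, against 28.6% of all target genes, and none for a higher one. The count of genes under lower names was 2 with TMM, against 18.1%, and 3 under each of the remaining scalings, against 19.6% and 23.8%. Gb_11261 and Gb_11262 matched ABCC3 and ABCC5, vacuolar-type transporters whose Arabidopsis forms carry conjugates, chlorophyll catabolites and inositol phosphates. Both were listed for novel_50, with 6 reads (2.15 CPM) in the yellow and 26 reads (12.5 CPM) in the green library, 5.81-fold lower (2.34 to 17.3). The match of Gb_11262 was weak, with an E value of 2.26e-06 in the deposited table. Gb_20796, matching ABCG35 with a deposited E value of 1.25e-14, was listed for novel_334, with 18 reads in the yellow and 37 in the green library. That name was 2.75-fold lower (1.53 to 5.14), or 1.99-fold with TMM, where it missed the limit. Gb_32127 matched ABCB4, an auxin transporter of Arabidopsis roots, and was listed for novel_128, with 38 reads in the yellow and 61 in the green library. novel_128 was 2.15-fold lower (1.41 to 3.32) when scaled by the total and passed the limit under no other scaling.

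Not called were Gb_07563, matching the auxin exporter ABCB19, and Gb_13906, matching ABCB2. The first was listed for novel_291, with 13 reads in the yellow and 9 in the green library and a ratio of 1.08 (0.426 to 2.86), and the second for novel_155, which was also listed for the sulfate transporter match Gb_10150. Gb_35487 and Gb_37715 matched ABCC1 and ABCC2, which in Arabidopsis store phytochelatin-bound metals in the vacuole. Both were listed for ptc-miR1448, with 8 reads in the yellow and 7 in the green library. Gb_36600, matching ABCC14, was listed for novel_332, with 5 reads in the yellow and 11 in the green library. Gb_20468, matching ABCG16, was listed for ath-miR5658, with 0 and 2 reads.

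The auxin group held 5 genes, 4 of them matching PIN efflux carriers, which set the direction of auxin flow, and 1 an influx carrier. Gb_03217, matching PIN3, was listed for novel_304, with 42 reads (15.0 CPM) in the yellow and 92 reads (44.1 CPM) in the green library, 2.94-fold lower (2.02 to 4.34) and 2.12-fold lower with TMM. Gb_06199, also matching PIN3 and with a deposited E value of 0, was listed for 3 names of miR167, a family known for targeting auxin response factors. vvi-miR167c had 523 reads (187 CPM) in the yellow and 568 reads (272 CPM) in the green library, a ratio of 0.687 (0.609 to 0.775). For bna-miR167d, at 509 yellow and 542 green reads, the ratio was 0.701 (0.620 to 0.792), and for ath-miR167a-5p, at 473 and 498, it was 0.709 (0.624 to 0.805). These 3 ratios lay within each other's intervals, stayed below 1 under each scaling, and that of ath-miR167a-5p came closest to it, at 0.980 with TMM. The PIN4 matches Gb_02144 and Gb_23207 were listed for bdi-miR159a-5p, ahy-miR156a and mtr-miR156j, each with 1 read in all. Gb_22674, matching the auxin influx carrier LAX4 of Medicago, was listed for novel_337, with 1 read in the yellow and 11 in the green library.

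Of the 8 metal genes, 5 were listed only for names under 20 reads, too few genes remaining to set against a background. By the total, 1 was listed for a higher name and none for a lower one. The shares of all target genes that could be called were 17.3% and 28.6%. Under each other scaling 3 were listed for a higher name. The background for higher was then 31.4% with TMM, 31.2% with median of ratios and 29.4% with the total less its most-read name. Gb_39414, whose match was the rice metal transporter Nramp3, was listed for novel_330, the name given also for the CNGC14 match. Gb_40293, matching the vacuolar iron transporter VIT1 with a deposited E value of 3.29e-13, was listed for novel_277, with 16 reads in the yellow and 5 in the green library. Its ratio was 2.39 (0.836 to 8.33) by the total, where the interval held 1, and 3.30 with TMM, where the name was called. Gb_14829, matching the molybdate transporter MOT2, was listed for novel_113, with 20 and 6 reads. Its ratio was 2.49 (0.963 to 7.57), and this name was likewise called under each other scaling but not by the total. The copper pump HMA5, which exports copper from root cells in Arabidopsis, was matched by Gb_15084. It was listed for 3 miR395 names and novel_244, of which novel_244 had 9 reads in the yellow and 8 in the green library and tae-miR395b had 6 and 9. The zinc transporters of the ZIP family, zinc uptake carriers, were matched by 4 genes with running numbers, Gb_40081 to Gb_40084. All 4 were listed for ppe-miR482c-5p alone, with 1 read in the yellow and 0 in the green library.

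Amino acid and peptide carriers were matched by 6 genes. Gb_13916, matching OPT3, an oligopeptide-family transporter tied to iron and copper movement in the phloem of Arabidopsis, was listed for stu-miR156f-5p and 3 other names. stu-miR156f-5p had 69 reads (24.7 CPM) in the yellow and 125 reads (60.0 CPM) in the green library. It was 2.43-fold lower (1.80 to 3.31), but 1.76-fold lower with TMM and 1.81-fold with median of ratios, where it was not called. The others of its names had at most 16 reads each. Gb_01018, matching the peptide carrier OPT4, was listed for novel_157, with 11 reads in the yellow and 6 in the green library. The cationic amino acid transporter 5 was matched by Gb_24002 and Gb_30793, both listed for hbr-miR156, with 1 and 0 reads. Gb_24252, matching the GABA transporter GAT1, and Gb_30548, matching the vacuolar amino acid transporter AVT1 of yeast, were listed for novel_327, the name given for the potassium transporter match.

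No sugar transport gene was listed for a name with enough reads. Gb_32240 matched SWEET1, a glucose uniporter of Arabidopsis, and was listed for novel_221, with 3 reads in the yellow and 5 in the green library, and for ahy-miR156a. Gb_04390, matching polyol transporter 4, and Gb_16003, matching CMP-sialic acid transporter 5, were listed for novel_244. Gb_38617, matching CMP-sialic acid transporter 2, was listed for novel_337, and Gb_25442, with a weak deposited match to ERD6-like 6 (E value 8.38e-06), for vvi-miR845a, with 0 and 1 reads. At these depths a difference of only 2-fold in the names listed for sugar transporters was not detectable. The counting interval of novel_337, 2.14- to 635-fold lower, left out 1, but its 1 yellow and 11 green reads were too few for a call.

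Water channels were matched by Gb_17413 and Gb_36381. Gb_17413, matching the plasma membrane aquaporin PIP2-8, was listed for novel_132, with 50 reads (17.9 CPM) in the yellow and 103 reads (49.4 CPM) in the green library. It was 2.76-fold lower (1.95 to 3.95), and 1.997-fold lower with TMM, where it just missed the limit. Gb_36381, matching SIP2-1, an aquaporin of the endoplasmic reticulum in Arabidopsis, was listed for novel_327. The only lipid gene was Gb_01165, matching the phospholipid flippase ALA9. It was listed for ath-miR159c, with 343 reads in the yellow and 204 in the green library and a ratio of 1.25 (1.05 to 1.499), and for lus-miR159b, with 94 and 73 reads and a ratio of 0.961 (0.700 to 1.32).

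Mechanosensitive channels, which open under membrane tension, were matched by 2 of the 4 genes with no stated substrate. Gb_34724, matching the Piezo-type channel homolog, was listed for novel_46, with 6318 reads (2261 CPM) in the yellow and 2324 reads (1115 CPM) in the green library. Its ratio of 2.03 (1.93 to 2.13) lay just past the limit by the total and was 2.80 with TMM. For its second name, novel_328, 21 yellow and 10 green reads gave a ratio of 1.57 (0.706 to 3.73). Gb_09492, matching the mechanosensitive channel MSL5, was listed for novel_277, as was the VIT1 match. Gb_08564, matching the ion channel POLLUX, was listed for ath-miR5658. Gb_17356 matched the biotin carboxyl carrier protein of Bacillus subtilis with a deposited E value of 9.40e-08, and was listed for novel_337. That protein is a subunit of acetyl-CoA carboxylase, so it met the wording of the choice without being a membrane transporter.

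Several genes shared their names, so their values are not separate. Of the 55 names, 21 were listed for more than 1 of the genes. novel_284 was listed for 6, which were 6 of its 10 target genes (60.0%). vvi-miR399i, ath-miR399b and ppe-miR399c were listed for 5 each. novel_244 was listed for 4 transport genes, but these were only 3.67% of its 109 targets, and novel_277 had 2 among 88. Transport genes made up 2.36% of all target genes in the table.

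Transport-related genes outside the choice were few. The words were met but the chloroplast or the mitochondrion was named for 5 genes. By the total, 3 of these were listed for a lower name, against 28.6% of all target genes, 1 only for names not called and 1 only for names with few reads. The gene not called, Gb_28897, matching a mitochondrial thiamine pyrophosphate carrier, was listed for novel_188, with 44 reads in the yellow and 20 in the green library. Its ratio was 1.64 by the total, and the name was called higher with TMM and with median of ratios. Gb_21177, matching the chloroplast copper pump PAA2, was listed for ppt-miR408b, with 27 reads in the yellow and 1032 in the green library, 51.2-fold lower (35.0 to 78.1). Gb_34698, matching a mitochondrial carnitine carrier-like protein, was listed for rgl-miR5139, with 38 and 296 reads, 10.4-fold lower (7.43 to 15.0). Gb_27318, matching a thylakoid ADP,ATP carrier, was listed for novel_132, the name of the PIP2-8 match, and for ppt-miR1030a, with 17 and 48 reads, 3.78-fold lower (2.14 to 7.02). A further 20 genes carried words such as permease, translocase, efflux or proton ATPase, of which 7 were listed only for names with few reads. Of the other 13, 3 were listed for a lower name and none for a higher one by the total, against 28.6% and 17.3% of all target genes. With TMM and with median of ratios 1 was listed for a lower and 3 for a higher name. The backgrounds were 18.1% and 31.4% with TMM, and 19.6% and 31.2% with median of ratios. With the total less its most-read name 2 were listed for a lower and 3 for a higher name, against 23.8% and 29.4%. The count takes in import translocases and splicing facilitators, which move no solute. The splicing facilitator match Gb_39209 was 1 of the 3 under a lower name by the total, through ppt-miR319a, which no other scaling called. Gb_39217, another such match, was 1 of the 3 under a higher name with each other scaling. The calcium uniporter matches Gb_23238 and Gb_25546, also mitochondrial, were the others under a lower name by the total. Gb_23238 was listed for ath-miR156a-5p, with 203 reads in the yellow and 379 in the green library, and Gb_25546 for novel_132 and ppt-miR1030a. The names listed for Gb_23238 were not called with TMM or median of ratios, while ppt-miR1030a was called lower under each scaling. Gb_04005, matching ureide permease 2 and singled out once its values were known, was listed for zma-miR396g-3p, with 22731 reads in the yellow and 9166 in the green library and a ratio of 1.85 (1.81 to 1.90) that passed 2 under each other scaling.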

How the data were processed

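Small RNA of 2 Ginkgo biloba leaf libraries was used. The authors deposited raw read counts per miRNA name, per the file headers; Bowtie is named in the submitters' processing notes without a version. No source used here gives the genome build, miRBase release or counting rule. The deposited target table, per the file headers, pairs genes with miRNA names and with a protein match and its E value, its other values being text. The prediction tool is named in no source used here, and miRNA sequences were not analysed here.

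Computed here were CPM from the column totals (467 names), the ratio of yellow over green, and its 95% exact binomial interval (SciPy 1.17.1). With 1 library per leaf type, intervals cover counting error only. The reads carry no molecular identifiers, so copies of a molecule are not told apart and the intervals may be too narrow even for that. edgeR 4.0.16 TMM and DESeq2 1.42.0 median-of-ratios factors served only as other scalings. Ratios were computed over the whole table and the method was tested on simulated data. The simulation held counting error only and planted differences well beyond 2-fold, so it covers neither library-to-library variation nor ratios near the limit. The genes, substrate keywords and settings were chosen with earlier results of these data known. 5 genes were moved between substrate groups by hand. Named were all called names listing the genes, the 5 most-read and the 5 listing the most genes, and, per substrate group, genes of called or most-read names and those with most names. The remaining genes were added so that each was accounted for, after their values were seen. Fold limits of 1.5, minima of 10, 50 and no reads, equal counts taken once and stricter gene choices were also tried.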

Additional observations from a re-analysis of the deposited data

How the results depend on the processing

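The split of calls depended on the scaling. The genes listed for a lower name numbered 6 with TMM, against 10 by the total, and 8 with median of ratios and 9 without the most-read name. Those listed for a higher name numbered 8 under each of the 3 other scalings, against 5. Of the names, 4 were lower with TMM, against 8, and 7 were higher under each of the 3 other scalings, against 4. The median log2 ratio was 0.01 by the total, 0.48 with TMM, 0.44 by median of ratios and 0.28 when the most-read name was left out of the total. The median of all names with at least 20 reads was -0.43, 0.03, -0.01 and -0.17 in the same order. For the names listing transport genes it was -0.50 with a minimum of 50 reads, -0.16 with none and -0.04 with 10. For all names it was then -0.48, -0.42 and -0.42. The scalings differ from the total by a common factor, and the reads minima by the names included. The counts stayed within 1.5 times under the other minima, the 1.5-fold limit and the E value limit given below. Taking equal counts once could not change them, since names with equal counts had at most 2 reads. Leaving out the biotin carboxyl carrier match could not either, as its only name had under 20 reads. No gene here had a description with transcription, kinase, repressor or binding, so leaving out such descriptions removed nothing. Without matches of E value above 1e-20, a choice made after seeing the data, 7 genes were listed for a lower and 5 for a higher name. When a gene took the call of its most-read name, also chosen later, 10 and 4 were. The shares of all target genes under either choice were not computed, so these counts have no background beside them. For ppe-miR399c, with 0 green reads, no ratio was formed under any scaling. No paired analysis was possible because each leaf type has 1 library. Of the 64 genes, 32 were listed only for names under 20 reads, where a 2-fold difference is mostly not detectable.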

Other observations

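The name novel_327, with 6 reads in the yellow and 5 in the green library, was listed for 4 transport genes of 3 substrate groups: the matches to potassium transporter 7, the GABA transporter GAT1, the vacuolar amino acid transporter AVT1 and the aquaporin SIP2-1. These were 4 of its 29 target genes (13.8%). novel_337, with 1 read in the yellow and 11 in the green library, was listed for the matches to LAX4, the biotin carboxyl carrier protein and CMP-sialic acid transporter 2. With a minimum of 10 reads it was the only further name to be called lower. Its 3 genes, the biotin carboxyl carrier match among them, raised the genes listed for a lower name to 13. The share of all target genes at that minimum was not computed, so this count has no background beside it.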
